A study of Mus musculus with 6 samples.

Results

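The enzymes that make, salvage and break down purine and pyrimidine nucleotides were followed in splenic B cells at rest and after activation through TLR9, the endosomal sensor of DNA. The set holds 38 genes, chosen by name for their role and found by gene symbol, out of 23420 genes in the files; every listed symbol was present and all 38 had more than -0.76 log2 CPM (the log2 of reads scaled to library size, as the authors deposited it), about 10.0 reads' worth, in at least 3 samples. RNA-seq values came from 6 samples of bead-purified B cells of WT BALB/c mice: 3 were cultured for 4 hours with 10 μg/mL of CpG DNA (CpG ODN 1826, a synthetic oligonucleotide that activates TLR9) and 3 for the same time with no stimulus. Replicates were numbered 1 to 3 in each group, 1 and 2 labelled female and 3 male, from 3 mice aged 7 to 11 weeks. All animals were wild-type, and the cells were purified in bulk and not sorted into subsets.

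Purine nucleotides are built up step by step on phosphoribosyl pyrophosphate (PRPP) until IMP, from which AMP and GMP are made, whereas the pyrimidine ring is made first and then joined to PRPP to give UMP and, from it, CTP. Ribonucleotides feed RNA synthesis, and ribonucleotide reductase turns them into the deoxynucleotides that DNA replication needs. Salvage enzymes return bases and nucleosides to the pool, and SAMHD1 breaks dNTPs down. Resting B cells keep most of this synthesis low, and activated B cells grow before they enter S phase.

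Groups were compared gene by gene with limma over 11233 genes, with Benjamini-Hochberg adjustment (FDR); a gene "rose" or "fell" when its FDR was under 0.05, and passed the fold threshold when its log2FC was also over 1 or under -1. Of the 38 genes, 27 rose, 7 fell and 4 did not pass. Among all genes tested 37.6% rose and 36.7% fell, so 71.1% of the nucleotide genes rose where 37.6% of all genes did, and 18.4% fell where 36.7% did. Past the fold threshold, 13 rose (34.2%, against 15.8% of all genes tested) and 5 fell (13.2%, against 15.3%). Their median log2FC was 0.85, beside 0.00 for all genes tested, and single values ran from -2.91 to 2.37. The 34 genes that changed were also those whose groups did not overlap, 27 with every stimulated sample higher (39.1% of genes tested) and 7 with every stimulated sample lower (38.6%). The protocol names 3 mice for both groups together, and p values measure the spread between these samples. In bulk RNA, fewer cells of a type and less RNA per cell cannot be told apart, and quantile normalization, which the authors applied, hides a change in total RNA per cell.

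**Figure D1:**
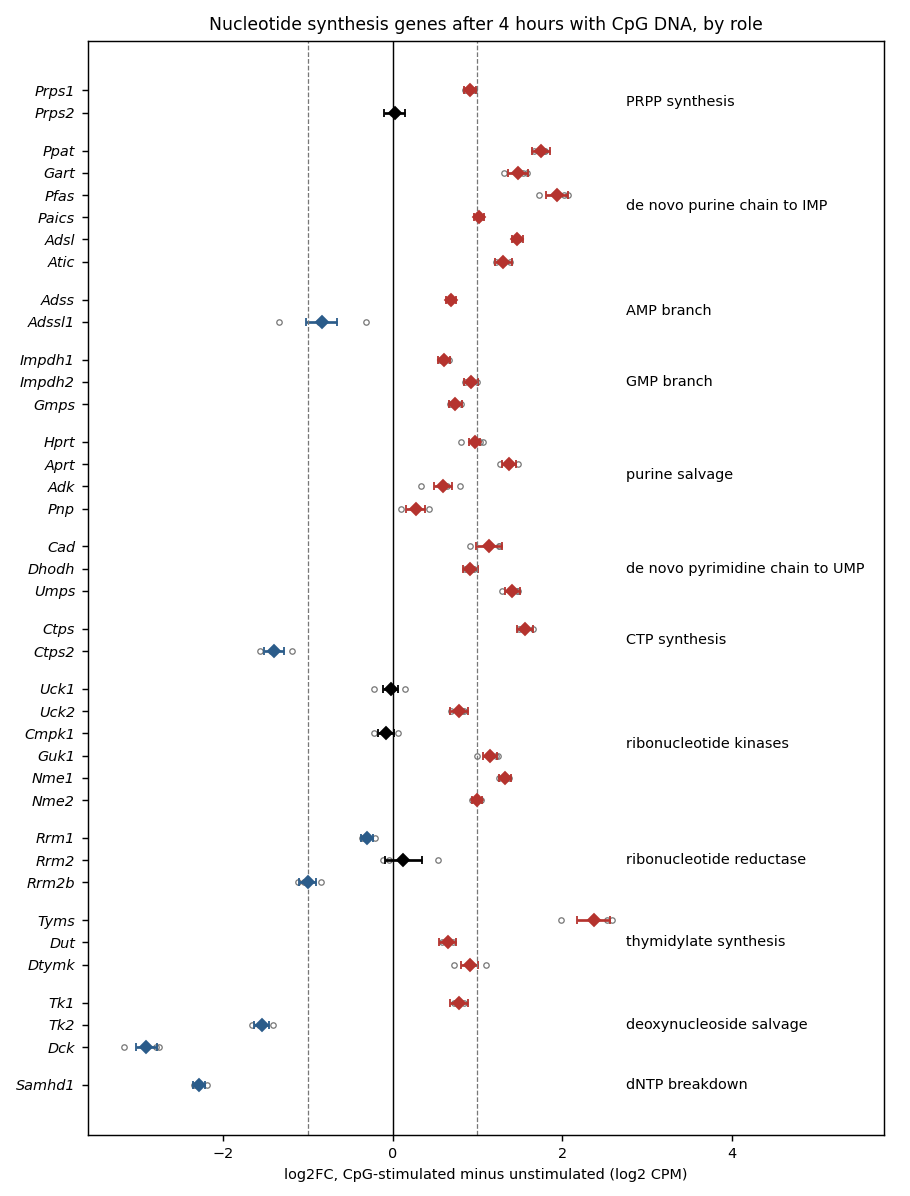
log2FC of each nucleotide synthesis gene (log2 CPM, CpG-stimulated minus unstimulated, horizontal axis), grouped by role; diamonds and bars are the limma estimate and its standard error, red for genes that rose, blue for genes that fell and black for genes that did not pass, open circles are the differences within each replicate number, and dashed lines mark -1 and 1. The 6 genes of the purine chain to IMP all lie right of 1, while genes on the deoxynucleotide side lie from -2.91 (Dck) to 2.37 (Tyms).

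In the purine chain from PRPP to IMP all 6 genes rose and all 6 passed the fold threshold, with a median log2FC of 1.47. Summed over these genes, expression was 616 ± 52.7 CPM in unstimulated and 1680 ± 202 CPM in stimulated samples (mean ± SD, n = 3 in each group). Ppat, the amidotransferase of the first committed step, was at 8.37, 7.999 and 8.13 log2 CPM in stimulated replicates 1, 2 and 3 and at 6.59, 6.33 and 6.33 in the unstimulated ones. Gart, a trifunctional enzyme of the chain, was at 8.74, 8.29 and 8.53 with CpG and 7.21, 6.97 and 6.94 without. Pfas, which makes the formylglycinamidine intermediate, had 8.12, 7.56 and 7.90 with CpG and 6.10, 5.84 and 5.83 without. In these genes the lowest stimulated sample stood more than 1 log2 unit above the highest unstimulated sample, and stimulated replicate 2 was the lowest of its group. Pfas had the largest change of the chain, a log2FC of 1.94 (standard error 0.13, FDR = 5.19e-07 by limma), or 3.83-fold, followed by Ppat at 1.75 ± 0.10 and Gart at 1.48 ± 0.11 (standard error).

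Of the later steps, Adsl and Paics had the tightest replicates of the chain. Paics, whose product carries out a carboxylation and the joining of aspartate, lay between 8.11 and 8.20 with CpG (values 8.20, 8.11 and 8.11) and at 7.20, 7.07 and 7.10 without. Adsl, the adenylosuccinate lyase that acts in the chain and again in the AMP branch, was at 7.09, 6.96 and 7.06 with CpG and 5.60, 5.54 and 5.57 without. Atic, which closes the ring to IMP, was at 8.71, 8.35 and 8.54 with CpG and 7.40, 7.13 and 7.16 without. Each of the 3 was higher in every stimulated sample. The log2FC was 1.02 for Paics (standard error 0.06), 1.47 for Adsl (0.06; FDR = 4.32e-08 by limma) and 1.31 for Atic (0.10). Ppat and Paics are neighbours on chromosome 5 that start head to head and share 272 exonic bases on opposite strands, 4.41% and 5.97% of their stretches of 75 bases (the read length). Whether the authors' counting used the strand is not given in the sources used here.

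**Figure D2:**
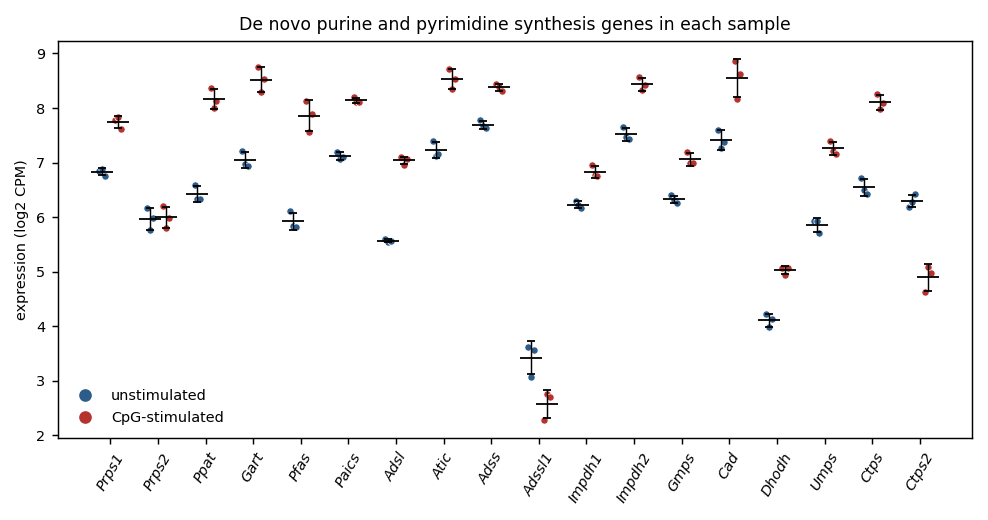
Expression (log2 CPM, vertical axis) of the genes for PRPP, purine, UMP and CTP synthesis in each sample; points are replicates 1 to 3 from left to right, horizontal bars the mean and whiskers the SD (n = 3). Stimulated samples (red) lie above unstimulated samples (blue) in all genes shown other than Prps2, where they overlap, and Adssl1 and Ctps2, where they lie below.

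PRPP itself is made by the synthetases Prps1 and Prps2, both X-linked. Prps1 was at 7.78, 7.84 and 7.62 with CpG and 6.85, 6.88 and 6.76 without, a log2FC of 0.91 (standard error 0.07), and Prps2 was at 6.20, 5.81 and 5.98 with CpG and 6.17, 5.76 and 5.99 without. Prps2 showed almost the same 3 values in both groups. Its log2FC of 0.02 had a 95% interval from -0.25 to 0.29 and an FDR of 0.877 by limma.

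In the branches that follow IMP no gene passed the fold threshold. Impdh1 and Impdh2 encode the dehydrogenases that open the GMP branch, and Gmps the synthase that completes it; all 3 rose. Impdh2 was at 8.56, 8.32 and 8.42 with CpG and 7.65, 7.47 and 7.43 without, a log2FC of 0.92, and 34.9% of its stretches of 75 bases also occur in the pseudogene Impdh2-ps. Impdh1 was at 6.96, 6.78 and 6.76 with CpG and 6.29, 6.22 and 6.17 without (log2FC 0.60), and Gmps had a log2FC of 0.74. In the AMP branch the genes moved apart. Adss, listed now as Adss2, the broadly expressed adenylosuccinate synthase, was at 8.44, 8.38 and 8.32 with CpG and 7.78, 7.68 and 7.63 without, and rose by 0.69. Adssl1 (Adss1), known as the muscle form, was at 2.29, 2.76 and 2.70 with CpG and 3.63, 3.07 and 3.57 without, and its log2FC was -0.84 (standard error 0.18, FDR = 0.00198 by limma). It was a low gene, worth about 190.1 reads in unstimulated and 106 reads in stimulated samples on average.

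All 4 genes of purine salvage rose. Aprt, which recovers adenine, was at 7.31, 7.23 and 7.24 with CpG and 6.05, 5.85 and 5.76 without, and it alone of the 4 passed the fold threshold (log2FC 1.37, standard error 0.08). Hprt, which recovers hypoxanthine and guanine, had a log2FC of 0.97, and Adk, the adenosine kinase, of 0.59. Pnp, the phosphorylase that splits purine nucleosides, stood at 4.84 ± 0.04 with CpG and 4.57 ± 0.21 log2 CPM without (SD, n = 3), with an FDR of 0.0441 by limma. This call was lost in 7 of 13 alternative fits, in which the FDR ran up to 0.183, and 19.1% of the stretches of 75 bases in Pnp occur in other annotated genes, among them Pnp2.

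On the pyrimidine side, the 3 genes that lead to UMP rose together with a median log2FC of 1.14, and their summed expression was 246 ± 24.2 CPM without and 569 ± 101 CPM with CpG (SD, n = 3). Cad, the trifunctional enzyme of the first steps, was at 8.86, 8.17 and 8.62 with CpG and 7.61, 7.26 and 7.37 without. Its stimulated samples spread the most of the 38 genes (SD 0.35), and its log2FC was 1.14 ± 0.15 (standard error). Umps, which completes UMP, was at 7.40, 7.22 and 7.17 with CpG and 5.92, 5.93 and 5.70 without, a log2FC of 1.41 (standard error 0.09). Dhodh, the mitochondrial dehydrogenase between them, was lower than both in level (log2 CPM 5.02 ± 0.07 and 4.11 ± 0.12, SD, n = 3) and had a log2FC of 0.92, under the fold threshold. Levels of these genes are on the log2 CPM scale and are not corrected for length.

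CTP synthesis gave the widest contrast between genes for the same reaction. Ctps (Ctps1), known as the form that proliferating lymphocytes depend on (chr4:120539868-120570276, - strand, GRCm38), was at 8.25, 7.98 and 8.09 log2 CPM in stimulated and 6.72, 6.49 and 6.43 in unstimulated replicates. Ctps2, on the X chromosome, was at 4.62, 5.09 and 4.98 with CpG and 6.19, 6.28 and 6.42 without. Ctps was thus above its unstimulated range in every stimulated sample and Ctps2 below it. The log2FC was 1.56 for Ctps (standard error 0.09, FDR = 2.27e-07 by limma) and -1.40 for Ctps2 (standard error 0.12, FDR = 2.34e-06 by limma).

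Of the kinases that phosphorylate nucleosides and nucleotides, 4 of 6 rose and 2 did not pass. Nme1, a nucleoside diphosphate kinase, was at 8.26, 8.15 and 8.12 with CpG and 6.92, 6.90 and 6.75 without, and Nme2, its neighbour on chromosome 11, at 8.91, 9.02 and 8.90 with CpG and 7.98, 7.97 and 7.91 without. Both rose, by 1.32 and 0.99. A read-through gene, Gm20390, covers 10.4% of the stretches of 75 bases in Nme1 and 45.8% of those in Nme2. Gm20390 has no values of its own in these data. How reads on the shared stretches were counted is not given in the sources used here. Guk1, the guanylate kinase, was at 5.68, 5.69 and 5.70 with CpG and 4.68, 4.47 and 4.46 without (log2FC 1.15, standard error 0.08). Uck2, an uridine-cytidine kinase, was at 7.44, 7.16 and 7.14 with CpG and 6.62, 6.47 and 6.30 without, and rose by 0.78. Uck1, with the same activity, was at 5.38, 5.14 and 5.35 with CpG and 5.23, 5.36 and 5.35 without, a log2FC of -0.02 (95% interval -0.22 to 0.17, FDR = 0.808 by limma). Cmpk1, which phosphorylates UMP and CMP, was at 6.59, 6.77 and 6.50 with CpG and 6.52, 6.86 and 6.72 without, a log2FC of -0.08 (95% interval -0.30 to 0.14, FDR = 0.484). For both Uck1 and Cmpk1 the groups overlapped.

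The promoters of these genes were read from RefSeq on GRCm38.p6, from 250 bases before to 50 bases after the start site, to set the sequence beside the values. A promoter was listed for 35 of the 38 genes, 44 windows in all. The letters searched on both strands were CACGTG (the E-box that MYC and related factors bind), TTTCCCGC and TTTGGCGC (E2F sites) and the canonical NF-κB site of 10 letters, and no matches overlapped. The E-box was found in 7 of 44 windows (15.9%), against 10.4% of 10670 promoters of genes tested and 7.15% of all 32851 promoters. An E2F site was in 2 windows (4.55%, against 3.06% and 1.56%) and the NF-κB letters in 0 (against 0.225% and 0.155%), which says only that these letters are not in these windows. The genes with an E-box were Atic, Paics, Impdh2, Nme1, Dtymk and Tyms. Each of the 6 rose, and so did 21 genes of the set for which no E-box was found or no window was listed. Their E-boxes are shown in capitals with 27 bases on either side, 5′ to 3′ on the strand of the gene.
Atic, + strand, chr1:71557122-71557181: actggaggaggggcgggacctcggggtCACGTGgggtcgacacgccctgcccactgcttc
Paics, + strand, chr5:76951072-76951131: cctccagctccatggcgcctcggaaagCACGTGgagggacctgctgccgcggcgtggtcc
Impdh2, + strand, chr9:108560299-108560358: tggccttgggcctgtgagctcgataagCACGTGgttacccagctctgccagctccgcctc
Nme1, downstream window, - strand, chr11:93968022-93968081: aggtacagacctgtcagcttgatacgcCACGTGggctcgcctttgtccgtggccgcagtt
Nme1, upstream window, - strand, chr11:93968258-93968317: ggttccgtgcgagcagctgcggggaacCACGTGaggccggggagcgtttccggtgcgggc
Dtymk, - strand, chr1:93802050-93802109: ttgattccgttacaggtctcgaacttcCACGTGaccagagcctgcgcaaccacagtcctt
Tyms, - strand, chr5:30073654-30073713: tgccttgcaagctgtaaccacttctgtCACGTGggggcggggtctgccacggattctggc

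The distance of the E-box from the start site differed among these genes. Counted from the start site, it began at position -7 in Atic and -203 in Paics, with Tyms (-61), Impdh2 (-110) and Dtymk (-148) between them, and at -29 and -18 in the downstream and upstream windows of Nme1. Ppat and Prps2 had the E2F letters. Those of Ppat stand in a pair, in capitals, and are shown because Ppat was second in the purine chain in its change.
Ppat, - strand, chr5:76951702-76951816: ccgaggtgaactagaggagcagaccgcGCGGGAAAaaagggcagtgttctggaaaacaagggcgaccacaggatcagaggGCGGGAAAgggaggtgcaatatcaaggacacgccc
Prps2, which did not pass the test, had a single match at position 33. The promoter of Dck, the gene that fell the most, held none of the motifs and is given whole for comparison.
Dck, + strand, chr5:88764763-88765062: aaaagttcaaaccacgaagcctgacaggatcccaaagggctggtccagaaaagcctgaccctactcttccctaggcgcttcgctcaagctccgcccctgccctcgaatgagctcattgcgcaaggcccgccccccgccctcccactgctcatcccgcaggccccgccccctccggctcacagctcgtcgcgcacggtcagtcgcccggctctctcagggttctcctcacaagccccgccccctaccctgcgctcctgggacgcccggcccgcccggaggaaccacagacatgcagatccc

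The genes on the deoxynucleotide side went in both directions. No subunit of ribonucleotide reductase rose: of the 3 genes 2 fell and 1 did not pass, and their summed expression was 136 ± 8.31 CPM without and 90.4 ± 1.99 CPM with CpG (SD, n = 3). Rrm1, the large subunit, was at 5.67, 5.68 and 5.69 with CpG and 6.04, 6.004 and 5.91 without. Its groups lay close but apart, with a log2FC of -0.30 ± 0.07 (standard error; FDR = 0.00184 by limma). Rrm2, the small subunit made in S phase, was at 2.54, 2.80 and 2.48 with CpG and 2.003, 2.92 and 2.52 without, with unstimulated replicate 2 above all stimulated samples. It was low, at about 108 reads' worth with and 98.8 without CpG, and the log2FC of 0.12 had a 95% interval from -0.37 to 0.61 (FDR = 0.624 by limma). Rrm2b, the p53-inducible small subunit used outside S phase, was at 4.98, 5.08 and 5.08 with CpG and 5.82, 6.13 and 6.20 without, a log2FC of -1.002 (standard error 0.10), which lies at the fold threshold.

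**Figure D3:**
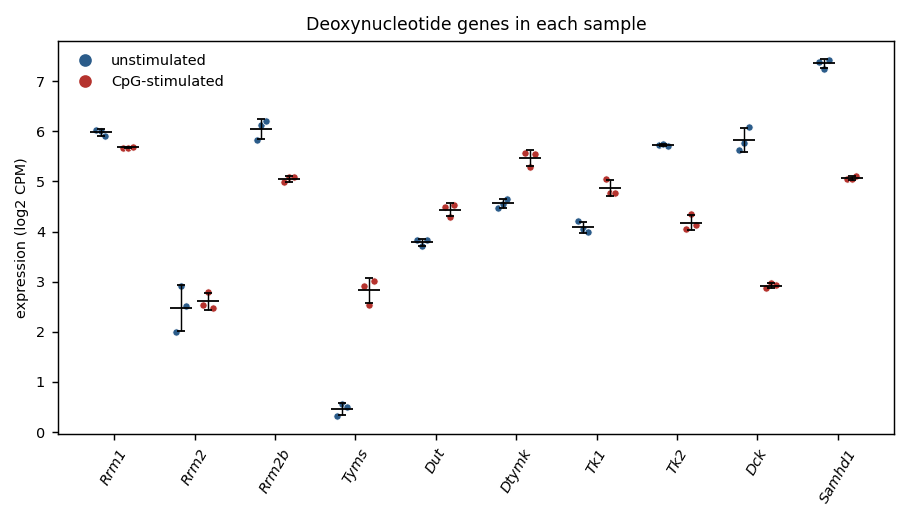
Expression (log2 CPM, vertical axis) of 10 deoxynucleotide genes in each sample; points are replicates 1 to 3 from left to right, horizontal bars the mean and whiskers the SD (n = 3). Stimulated samples (red) lie above the unstimulated (blue) for Tyms, Dut, Dtymk and Tk1, below for Rrm1, Rrm2b, Tk2, Dck and Samhd1, and among them for Rrm2.

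Thymidylate synthesis rose in all 3 genes. Tyms, the thymidylate synthase (chr5:30058202-30073617, - strand), was at 2.92, 2.54 and 3.02 with CpG and at 0.32, 0.56 and 0.49 without. The log2FC of 2.37 (standard error 0.19, FDR = 1.67e-06 by limma) was a 5.17-fold rise, from about 23.9 to 126 reads' worth. It was the largest of the 38 genes on this scale, whereas on the log2(CPM + 1) scale it was 1.77, under that of Pfas (1.92). Per kilobase of transcript, Tyms stayed low in the stimulated samples, at 1.17 log2 CPM per kb. Dut, which removes dUTP and supplies dUMP, had a log2FC of 0.65, and Dtymk, which phosphorylates dTMP, of 0.91; neither passed the fold threshold.

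Deoxynucleoside salvage divided by gene. Tk1, the cytosolic thymidine kinase tied to the cell cycle, was at 5.05, 4.78 and 4.76 with CpG and 4.20, 4.05 and 3.99 without, and rose by 0.78 (standard error 0.10). Tk2, the mitochondrial thymidine kinase, was at 4.06, 4.35 and 4.14 with CpG and 5.72, 5.76 and 5.71 without, a log2FC of -1.55 (standard error 0.09). Dck, the deoxycytidine kinase (chr5:88764996-88783281, + strand), was at 2.88, 2.97 and 2.93 with CpG and 5.63, 5.77 and 6.09 without, so its 3 stimulated samples lay close together (SD 0.05) and all below the unstimulated ones. Its log2FC of -2.91 (standard error 0.12, FDR = 3.53e-08 by limma), 7.499-fold lower, was the largest change in the set, and 0.944% of all genes tested had a lower one.

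Samhd1, the dNTP triphosphohydrolase that limits dNTP pools in resting cells (chr2:157097533-157135265, - strand), was at 5.04, 5.05 and 5.11 with CpG and 7.39, 7.24 and 7.43 without. Stimulated and unstimulated samples were each tight (SD 0.04 and 0.10, n = 3) and stood apart by a log2FC of -2.29 (standard error 0.07, FDR = 1.17e-08 by limma), or 4.87-fold lower. Of all genes tested, 2.76% had a lower log2FC.

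**Figure D4:**
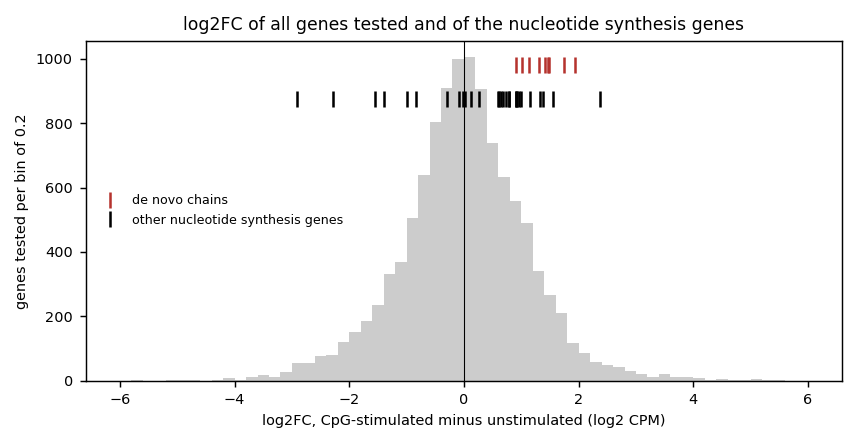
Histogram of the log2FC of all 11233 genes tested (bins of 0.2 on the horizontal axis, number of genes on the vertical axis), with ticks near the top for the 9 genes of the purine chain to IMP and the pyrimidine chain to UMP (red) and the other 29 nucleotide synthesis genes (black). All red ticks lie between 0.92 and 1.94, whereas black ticks run from -2.91 to 2.37, on both sides of no change, most of them above it.

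For 8 reactions, or pairs of related reactions, the set holds 2 genes, and the log2 ratio within each sample shows whether they changed alike. The Ctps/Ctps2 ratio was 0.25 ± 0.26 without and 3.21 ± 0.38 with CpG (log2 scale, SD, n = 3), a shift of 2.96 (standard error 0.26), the widest of the 8. Tk1/Tk2 moved from -1.65 ± 0.11 to 0.68 ± 0.28, so the order of the genes on the log2 CPM scale turned over. The ratio of Adssl1 to Adss shifted by -1.53, that of Rrm2 to Rrm2b by 1.13, that of Prps1 to Prps2 by 0.89 and that of Uck2 to Uck1 by 0.81. Impdh1/Impdh2 (shift -0.31) and Nme1/Nme2 (0.33) moved the least. The ranges of the groups did not overlap in any of the 8 pairs, and each had p = 0.1 in a two-sided exact permutation test (0.1 after Benjamini-Hochberg adjustment over the 8), the smallest p that 3 samples against 3 can give, so no pair could pass at 0.05.

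**Figure D5:**
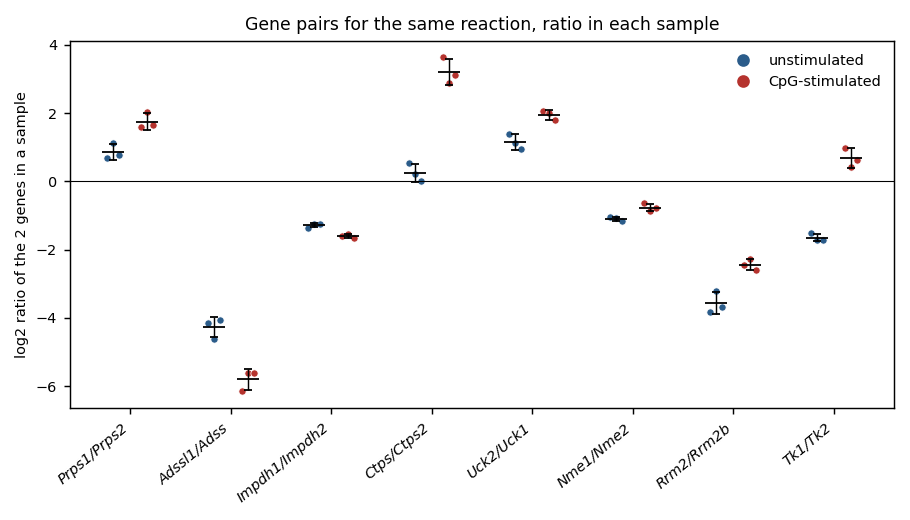
log2 ratio of the genes of each pair (vertical axis; the first named gene over the second) in each sample; points are replicates 1 to 3 from left to right, horizontal bars the mean and whiskers the SD (n = 3). Stimulated (red) and unstimulated (blue) samples are apart in all 8 pairs, the furthest in Ctps/Ctps2 and Tk1/Tk2.

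Levels of different genes were compared per kilobase of the principal transcript in GENCODE M21, since longer transcripts collect more reads. On this scale Nme2 was the highest of the 38 in both groups, at 7.94 log2 CPM per kb without and 8.93 with CpG. Impdh2 (6.62), Hprt (6.501), Adss (6.22) and Aprt (6.12) followed in unstimulated samples, and Impdh2 (7.54), Aprt (7.496) and Hprt (7.47) with CpG; the last 3 differ by less than the SD of Impdh2 (0.12) and are not ordered. Tyms (-1.20) and Rrm2 (1.35) were lowest at rest. With CpG the lowest were Tyms (1.17), Dck (1.301), Rrm2 (1.47) and Adssl1 (1.75), whose order is not given by these samples (SD of Tyms 0.25), and of these Dck had stood at 4.21 without CpG. These values depend on which transcript was taken, and the annotation that the authors counted on may differ.

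Other genes of the pathway were taken as 50 symbols chosen by role, and 40 of them were tested, of which 25 rose (62.5%, against 37.6% of all genes tested), 10 fell (25%, against 36.7%) and 5 did not pass. Of 7 genes of folate and one-carbon metabolism, the pathway that feeds the purine ring and dTMP, 6 rose (85.7%) and 1 fell (14.3%). The largest rises were in Mthfd2 (log2FC 2.43), Shmt1 (2.22), Aldh1l2 (1.66, at 14.2 reads' worth at rest) and Shmt2 (1.65). Of 4 nucleoside transporters 3 rose (75%), the equilibrative carriers Slc29a2 (2.47), Slc29a1 (1.48) and Slc29a3 (0.998). The only concentrative carrier listed, Slc28a2, fell (log2FC -2.73, from 4.99 ± 0.13 to 2.25 ± 0.03 log2 CPM, SD, n = 3).

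Of 8 further nucleotide kinases tested, 3 rose (37.5%, against 37.6% of all genes tested), among them Ak4 (1.92) and Nme6 (1.47). Another 4 fell (50%, against 36.7%) without passing the fold threshold (Ak3, Cmpk2, Nme3 and Nme7, log2FC -0.86 to -0.57). In other salvage and interconversion, 4 of 7 rose (57.1%) and 2 fell (28.6%). Dctd, the dCMP deaminase that supplies dUMP to Tyms, had the largest rise at 2.70 (from 1.68 ± 0.29 to 4.37 ± 0.28 log2 CPM, SD, n = 3), Mtap, which returns adenine from methylthioadenosine, rose by 1.70 and Ampd2, an AMP deaminase, by 1.14, while Ampd3 fell (log2FC -2.05). Among 14 tested genes of breakdown and pool cleaning, 9 rose (64.3%) and 2 fell (14.3%). Dctpp1, which removes excess dCTP, rose by 2.40, Ada, the adenosine deaminase, by 1.17 and Tymp, the thymidine phosphorylase, by 1.09, and Xdh, which makes uric acid, fell (log2FC -2.49, standard error 0.59). Of these genes, Xdh and Ampd3 were low with CpG (8.58 and 16.4 reads' worth) and Tymp was low at rest (14.2). Cda, the cytidine deaminase, stood in each of the 6 samples at the most common value in the files, taken as no reads.

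Sample composition was checked with marker genes. The 7 B cell markers had a median of 9.05 log2 CPM and summed to between 2410 and 2767 CPM with CpG and between 3629 and 4235 without (2 rose and 4 fell), whereas 0 of 7 T cell and 0 of 4 NK cell markers averaged over -0.76 across the samples. T cell markers summed to at most 0.736 CPM in any sample, and NK cell markers to between 0.727 and 1.35 CPM with CpG and between 0.126 and 0.160 without, a difference carried mostly by Klrb1c. Myeloid markers (4 of 7 over -0.76) summed to between 19.8 and 26.5 CPM with CpG and between 12.1 and 17.7 without (Cd68 and Emr1 rose and Csf1r fell), with S100a8 under the limit of 3 reads; of 4 pDC markers 3 were over -0.76, carried by Irf8, which B cells also express, while Siglech was under that limit. Their sums were 1765 to 1913 CPM with CpG and 560 to 622 without. The part of these cells in the changes was not tested. Erythroid markers were present in all samples and highest in replicate 2 of both groups for all 8 genes, with sums of 3954 and 5011 CPM there and 400 to 635 CPM elsewhere. Of the 38 nucleotide genes, 5 were highest in replicate 2 of both groups (Prps1, Pnp, Cmpk1, Rrm2 and Tk2), 13.2% against 14.6% of all genes tested. Without both samples numbered 2, again 27 rose and 7 fell, 13 and 5 of them past the fold threshold.

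Replicate number also showed in the set itself. In stimulated samples 22 of the 38 genes were highest in replicate 1 (57.9%, against 37.6% of genes tested), and in unstimulated samples 23 were (60.5%, against 36.4%). The deposited values hold an offset by gene and replicate number that both groups share: 1482 genes had the same value in both groups at each number but different values among numbers. Each number stands once in each group, so the log2FC does not change with such an offset, while single values, SDs and standard errors do.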

How the data were processed

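RNA-seq values of 3 CpG-stimulated and 3 unstimulated B cell samples were used. The authors aligned paired reads to mm10 with STAR 2.6.1a, counted them per gene with featureCounts (Subread 2.0.1), and applied quantile normalization and voom, per the methods and the submitters' processing notes. The deposited values are log2 CPM and not counts. The most common value, -5.15, held by 5443 genes in all samples, was taken as that of a gene without reads (0.5 reads in voom), which corresponds to 17.8 M reads counted on genes. Lower values also occur: in 1482 other genes the groups have equal values at each replicate number, and in 1458 of these the mean over numbers is -5.15 (within 0.002), so an offset by gene and number was added to the values, by a step not given in the sources used here. Read equivalents are therefore approximate; the depth of single samples is not kept, as values sum to between 992384 and 1012400 CPM in each. They and the limit of 3 reads (-2.34) cover counting error only.

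Tests used lmFit and eBayes with a trend, from limma 3.58.1 under R 4.3.3, over 11233 genes with a value over -0.76 in at least 3 samples, with Benjamini-Hochberg adjustment. Standard errors of log2FC are from that fit, and those of gene pairs from the SDs of the groups. The procedure was tested on simulated data with independent noise in each sample. Those data held no offset by replicate number, so the fit was not checked under that offset. Deviations from the group means correlated at 0.435, 0.224 and 0.300 for equal replicate numbers and at 0.0279 or less for others. These correlations include that offset, so they do not show on their own that samples of equal number are paired. Each number has 1 labelled sex, and whether it marks the same mouse is not given in the sources used here. The fit with the replicate number as a block is an alternative, as are other filters, scales and left-out samples. Genes and lists were chosen with earlier results of these data known. Values per sample are given for genes that fell, passed the fold threshold, had a paired gene or did not pass the test; in other lists up to 4 genes past the fold threshold are named, and further ones were named after their values were seen. Older symbols were matched through RefSeq. Of the other pathway genes, Ak6 was not matched. Values of some genes of these lists are not reported here. Shared stretches were counted over GENCODE M21 transcripts (GRCm38).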

Additional observations from a re-analysis of the deposited data

Results flagged for a closer look

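In a single nucleotide gene, which did not pass the test, the small differences within replicate numbers had opposite signs in samples of different labelled sex. Prps2 was higher with CpG by 0.036 and 0.044 log2 CPM in replicates 1 and 2 (female) and lower in replicate 3 (male), at -0.014. The difference was not tested, the male group holds 1 sample per condition, and these values are smaller than the standard error of the Prps2 log2FC (0.12).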

How the results depend on the processing

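The counts of nucleotide genes that rose or fell stayed within 1.5 times their value in all alternatives run: 26 to 27 rose and 7 fell, 10 to 15 rose and 4 to 5 fell past the fold threshold. The 10 came from a test of the log2FC against 1 (limma treat), and the 4 from that test, from log2(CPM + 1) and from leaving out stimulated replicate 1 or unstimulated replicate 3. With the replicate number as a block, 27 rose, 7 fell, and 13 and 5 passed the fold threshold, and no call of a single gene among the 38 changed. Without single samples, 12 to 15 genes rose past the fold threshold; the genes nearest to it were Rrm2b, Nme2 and Paics. Gene by gene, 494 refitted values were compared with those reported: 482 had the same sign and call, 7 lost the call, all in Pnp, and 5 in 3 genes that did not pass changed sign. Over left-out samples the log2FC ran from -0.083 to 0.12 in Prps2, from -0.067 to 0.073 in Uck1 (0.050 without stimulated replicate 2) and from -0.12 to 0.34 in Rrm2; the cause was not tested. Fits without single samples are not balanced over the replicate numbers and so include the offset by number. The ratios of gene pairs kept their sign in all alternatives, the block included, where sign flips over 3 pairs cannot give p under 0.25. Other pathway genes that rose numbered 24 to 25, and those that fell 7 to 10, the fewest without a filter on low values. Among the 38 genes, depth limits Tyms at rest, Rrm2 and Adssl1 the most. Some other pathway genes named as risen or fallen were lower than these. With CpG, Xdh was worth 8.58 reads and Ampd3 16.4, and at rest Aldh1l2 and Tymp were each worth 14.2.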

Other observations

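Genes of the cell cycle gave a context for the deoxynucleotide genes. Of 9 S phase genes 5 rose (55.6%, against 37.6% of all genes tested) and 3 fell (33.3%, against 36.7%), none past the fold threshold. Pcna, the sliding clamp of DNA replication, rose by 0.81, Mcm5 by 0.73, Mcm3 by 0.73, Ccne2 by 0.67 and Mcm6 by 0.28. Ccne1 (log2FC -0.63), Mcm4 (-0.52) and Mcm7 (-0.26) fell. Of 8 genes of G2 and mitosis, 1 (12.5%), Aurkb, fell (log2FC -0.93) and 7 did not pass. Of those 7, Cdk1 had the highest log2FC (0.77, FDR = 0.0575 by limma). The summed level of the 8 genes was between 50.04 and 82.7 CPM in all 6 samples, highest in unstimulated replicate 2. Of 5 transcription factors chosen for their known ties to nucleotide genes, Myc rose from 9.82 ± 0.17 to 10.87 ± 0.16 log2 CPM (SD, n = 3), E2f1 by 0.76 and E2f3 by 0.29, while E2f2 (log2FC 0.58, FDR = 0.0594) and Atf4 (-0.03, FDR = 0.765) did not pass by limma. These genes were named after their values were seen.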
